A study of Gallus gallus with 4 samples.

Results

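Chick optic tecta at one developmental stage, HH35 in the Hamburger-Hamilton series, were compared along their anteroposterior (AP) axis on 1 microarray and along their mediolateral (ML) axis on another. Genes were taken where the signal-to-noise score exceeded 3 in both colours of both HH35 arrays, which held for 18151 of 42034 gene probes. These probes stood for 17468 features, of which 5859 were genes with a symbol and the rest were probes left without one. The genes with a symbol were 5859 of 8519 on the array, and the 2660 others were below the limit in at least 1 channel. Each feature was then sorted by whether its ratio passed 1.5-fold, a log2 ratio of 0.585 to either side, on the AP axis only, on the ML axis only, on both or on neither.

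The series holds 4 two-colour arrays, and the others are AP at HH37 and ML at HH30. The tecta of Gallus gallus embryos, for which no genotype, strain or agent is given, were cut in the middle of one axis, and 60 pieces of one side were pooled for each channel. The AP array at HH35 compared the posterior pool in Cy5 with the anterior pool in Cy3. The ML array at HH35 compared a medial with a lateral pool. Each axis and stage has 1 array with no replicate and no dye swap, so nothing below has a test across samples, and a gene's own dye effect cannot be told apart from a difference between pools on any single array.

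The optic tectum is the main visual centre of the bird midbrain and receives the axons of the retina as an ordered map. In that map the nasal to temporal retina is laid out along the AP axis, with EphA receptors and their ephrin-A ligands as the classic graded cues. The dorsal to ventral retina is laid out along the ML axis, where EphB receptors, ephrin-B ligands and Wnt signals are known for the same role. The posterior end of the tectum borders the isthmus, the organiser at the midbrain-hindbrain boundary, and tectal neurons mature earlier toward the anterior end.

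Every ratio is given on the log2 scale as Cy5 over Cy3. A positive AP value is therefore higher in the posterior pool, by the dye labels and by the anterior over posterior ratio of the authors' deposited table alike (r = -0.980 against Cy5 over Cy3 across 18151 probes). For the ML arrays these sources oppose each other. The dye labels put medial in Cy5, while the medial over lateral ratio of the authors' deposited table ran with Cy3 over Cy5 (r = -0.934 against Cy5 over Cy3 at HH35). ML values are therefore given by channel and no side is named. All 4 arrays carry block numbers of what appears to be 1 slide, and the median foreground intensity in Cy5 and Cy3 was 194 and 229 on the AP array and 149 and 140 on the ML array. Repeated control spots, 32 copies of each of 10 probes, had a median SD of 0.134 on the AP array, 0.16 on the ML array and 0.205 for the AP minus ML difference. This covers spots within an array only. Among 550 genes with several passing probes, the probes of a gene spanned a median of 0.251 on the AP array and 0.231 on the ML array.

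Markers of the labelled tissue were present. Of 44 tectal transcription factors listed, 25 had a probe with a symbol and 22 passed, among them PAX7, PAX3, MEIS2, DMBX1, LHX1, LHX9, GATA2 and EN1. Of all genes with a symbol 5859 of 8519 passed, and of the muscle and cartilage genes 13 of 18. Passing the limit therefore does not by itself identify the tissue. In RNA from whole tissue, fewer cells of a type and less RNA per cell cannot be told apart.

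At HH35 far more features were past 1.5-fold on the AP array than on the ML array. Past 1.5-fold on the AP axis only were 1761 features (10.1%), on the ML axis only 428 (2.45%), on both 81 (0.464%) and on neither 15198 (87.0%). Taken by axis, 1842 of 17468 features (10.5%) were past the limit on the AP array and 509 (2.91%) on the ML array. Among genes with a symbol, 541 (9.23%) were graded on AP only, 122 (2.08%) on ML only, 20 (0.341%) on both and 5176 (88.3%) on neither. The shares of these genes past the limit were 9.58% on the AP array and 2.42% on the ML array. The SD of the ratios over all features was 0.381 for AP and 0.280 for ML. The median SD of the control spots was 0.134 and 0.16. Axis and array cannot be told apart here. The AP array was also the brighter, at 194 and 229 in Cy5 and Cy3 against 149 and 140. The part of brightness in these counts was not tested. Genes just inside the limit lay between 0.5853 and 0.5866 on the AP array and between 0.5851 and 0.5873 on the ML array, and those just outside between 0.5824 and 0.5846 and between 0.5813 and 0.5848.

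The 2 axes also differed in which channel held the excess. On the AP axis 1272 features (7.28%) were higher in the anterior pool and 570 (3.26%) in the posterior pool. On the ML axis 314 (1.8%) had their excess in Cy5 and 195 (1.12%) in Cy3. Among genes with a symbol, 426 (7.27%) were anterior and 135 (2.3%) posterior, while on the ML axis the split turned, with 40 (0.683%) in Cy5 and 102 (1.74%) in Cy3. These splits rest on the normalisation. With median centring in place of loess, which shifted the median of all features by -0.192 on the AP array and -0.082 on the ML array, they became 2943 anterior to 116 posterior, and 250 in Cy5 to 391 in Cy3. With plain background subtraction the AP split was 1334 anterior to 1057 posterior. The authors' value table gave 1725 posterior to 1421 anterior.

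**Figure D1:**
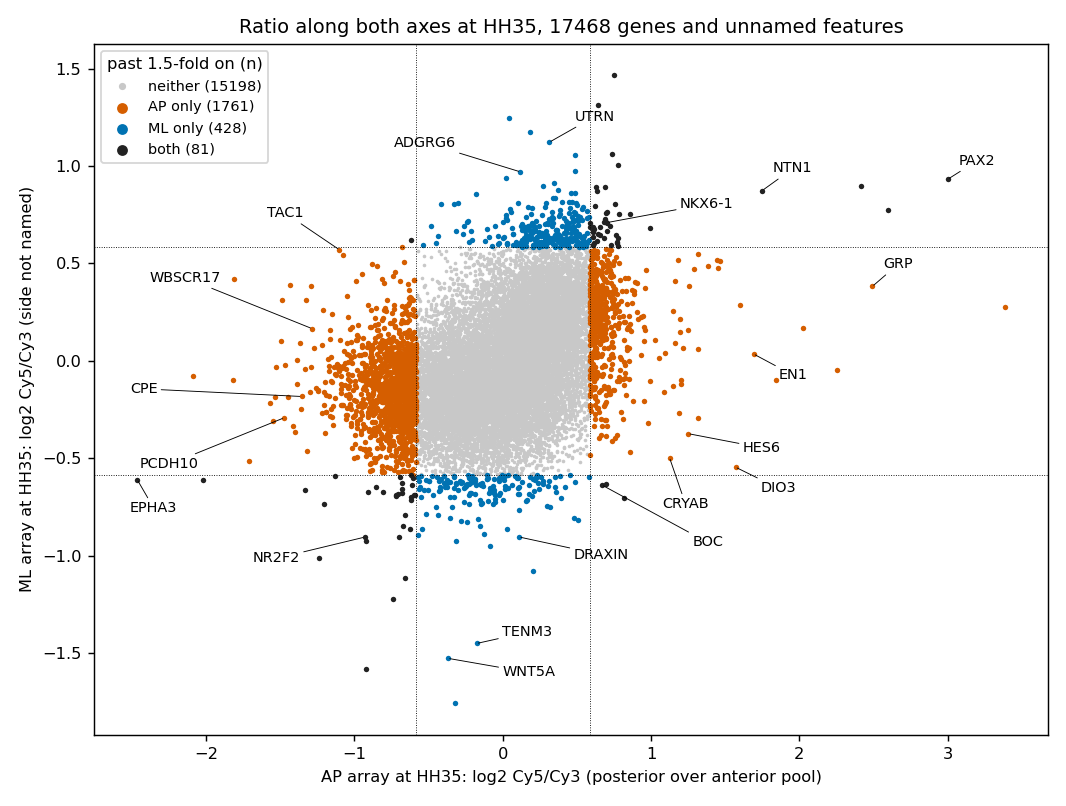
Log2 ratio of Cy5 over Cy3 on the AP array (x axis, posterior over anterior pool) against the ML array (y axis, side not named) at HH35, 1 point per gene or unnamed feature, coloured by class; dotted lines mark 1.5-fold. The cloud is wider along x than along y, 81 black points lie past the limit on both axes, and 77 of them sit in the upper right or lower left.

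The few features past the limit on both axes lay almost all on the same channel side of each. Of the 81, 45 were higher in Cy5 on both arrays, 32 were higher in Cy3 on both, and 4 lay on opposite sides. The 81 were 4.4% of the features graded on AP, where 2.91% of all features were past the limit on ML. They were 15.9% of those graded on ML, where 10.5% of all features were past it on AP. Over all 17468 features the ratios of both arrays had the same sign for 67.5%, and their correlation across features was 0.41, a description over points that share the slide and the dyes. Features graded on one axis only also leaned the same way on the other axis, for 78.5% of the AP-only and 81.3% of the ML-only features, at a median size of 0.198 and 0.297. The 5% of features furthest out on each array, a limit chosen after seeing the data, shared 53 of 874 features. By that choice 5% of all features were past it on either array.

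Brightness and naming differed between the classes. The ML-only features of the Cy3 side had a median log2 intensity of 11.65 and those graded in Cy3 on both axes 11.34, against 9.73 over all features. The ML-only features of the Cy5 side stood at 9.29, and only 12.7% of them had a symbol, against 33.5% of all features and 55% of the ML-only features of the Cy3 side. The part of brightness in the sorting was not tested.

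Genes graded along the AP axis alone at HH35 are described first, beginning with those higher in the posterior pool. GRP, which encodes gastrin-releasing peptide, had ratios of 2.49 on the AP and 0.38 on the ML array at HH35, and of 0.46 at AP HH37 and 1.49 at ML HH30. Its net intensity on the AP array was 1111 in the posterior and 206 in the anterior pool, a normalised difference of 5.62-fold, while the ML pools read 627 and 478. It was thus high in the posterior pool at HH35, and the next highest of its ratios was that of the ML array at HH30.

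EN1, a homeobox gene that sets posterior tectal identity, stood at 1.69 on the AP and 0.04 on the ML array at HH35, the latter a 1.02-fold difference. At AP HH37 it was at 0.02 and at ML HH30 at 0.55. Among the 10 posterior genes furthest out, EN1 had the ML ratio closest to 0. SFRP1, a secreted Wnt modulator, stood at 1.60 and 0.29, and DIO3, a deiodinase that breaks down thyroid hormone, at 1.57 and -0.55. DIO3 lay on opposite channel sides of the axes, and its ML ratio was just short of the limit. The neuropeptide gene NMU stood at 1.38 and 0.49, the water channel gene AQP4 at 1.29 and 0.47, and SST7, listed with the neuropeptides, at 1.25 and 0.38. The Notch-pathway repressor gene HES6 was at 1.25 and -0.37, the cyclin gene CCNB3 at 1.25 and 0.16 and the collagen gene COL22A1 at 1.2 and 0.15. Of these 10 genes, 8 leaned toward Cy5 on the ML array at HH35 as well and HES6 and DIO3 toward Cy3. At ML HH30, SST7 at 1.71, AQP4 at 0.97, COL22A1 at 0.95 and SFRP1 at 0.94 were, like GRP, past the limit in Cy5. HES6, at -0.80, was past it in Cy3 there. EN1, NMU, DIO3 and CCNB3 were within it, NMU with 1 channel below the signal-to-noise limit.

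The 10 genes furthest toward the anterior pool alone were PCDH10, RARB, CPE, PPP3CA, WBSCR17, CCN2, GJD2, ELMOD1, SERPINE2 and PBX3. PCDH10, a protocadherin, had ratios of -1.47 on the AP and -0.29 on the ML array, with -0.20 at AP HH37, where 1 channel fell below the signal-to-noise limit, and 0.03 at ML HH30. Its net intensity was 1612 in the anterior and 414 in the posterior pool, a normalised difference of 2.78-fold. RARB, a retinoic acid receptor, stood at -1.40 and -0.36, and CPE, an enzyme that trims prohormones, at -1.36 and -0.18. PPP3CA, the catalytic subunit of calcineurin, was at -1.32 and -0.46 and again at -1.37 at AP HH37, against -0.11 at ML HH30. Of these 10 anterior genes it had the furthest anterior ratio at HH37. WBSCR17, at -1.29, and ELMOD1, at -1.22, had ML ratios above 0, at 0.17 and 0.08. The matrix gene CCN2 stood at -1.25 and -0.15, the neuronal gap junction gene GJD2 at -1.24 and -0.15, the protease inhibitor gene SERPINE2 at -1.17 and -0.28 and the homeobox gene PBX3 at -1.16 and -0.10. All 20 of these genes kept the sign of their AP ratio in each of the 10 or 11 alternative settings computed for them.

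The ML-only genes of the Cy3 side included a Wnt ligand and a teneurin at the far end. WNT5A, a secreted Wnt ligand, had ratios of -0.37 on the AP and -1.53 on the ML array at HH35, and of 0.06 at AP HH37 and -0.22 at ML HH30. Its net intensity in the ML pools was 553 in Cy5 and 1698 in Cy3, a normalised difference of 2.88-fold. The large value was confined, among the 4 arrays, to ML at HH35. TENM3, a transmembrane teneurin of visual circuits, stood at -0.18 on the AP and -1.45 on the ML array, with net intensities of 468 and 1387 in the ML pools. At AP HH37 it was at -0.20 and at ML HH30 at -1.19, so it was high in the Cy3 pool of both ML arrays and within the limit on both AP arrays.

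DRAXIN, a secreted axon repellent and Wnt antagonist, stood at 0.11 on the AP and -0.90 on the ML array, and was at -0.45 at ML HH30. WNT3A, a Wnt ligand of the dorsal midline, stood at 0.20 and -0.69 at HH35 and at -1.13 at ML HH30. NPY5R, a neuropeptide Y receptor gene, was at -0.32 and -0.92, but its ML ratio ranged from -1.04 to -0.31 over the alternative settings. NECAB2, a neuronal calcium-binding protein gene, stood at 0.18 and -0.68, and GBX2, a homeobox gene of the isthmus and diencephalon, at -0.25 and -0.64. GBX2 was at 1.04 at ML HH30, on the other channel side. The 10 furthest in Cy3 were WNT5A, TENM3, NPY5R, DRAXIN, HBBA, TF, GPM6A, ITFG1, ITM2A and LDHB. WNT3A, NECAB2 and GBX2 were not among them. HBBA, a beta-type globin gene of red blood cells, was at 0.03 and -0.87, and the transferrin gene TF at -0.55 and -0.86. GPM6A, a neuronal membrane glycoprotein gene, stood at -0.28 and -0.82, and ITFG1, ITM2A and LDHB at -0.81, -0.79 and -0.79 on the ML array. Net intensities of GPM6A in the ML pools were 19088 in Cy5 and 25524 in Cy3, a smaller ratio than the 1.77-fold left by the normalisation. The same held for HBBA, with 14951 and 21021 against 1.82-fold, and for ITFG1, ITM2A and LDHB. For WNT5A, TENM3, NPY5R, DRAXIN and TF the net ratio was not the smaller.

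On the ML array, globins did not move as one. HBA1 and HBBA stood at -0.66 and -0.87, while HBE1 and HBZ were at 0.49 and 0.46. Of 21 blood cell genes listed 9 had a probe with a symbol and 6 passed, 3 to either side, and their summed intensity after normalisation was 24427 in Cy5 and 37556 in Cy3 on the ML array against 64950 and 63435 on the AP array. Their part in the ML-only values was not tested.

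On the Cy5 side of the ML-only class the median ratio was 0.65, and on the Cy3 side -0.65. UTRN, which encodes utrophin, was at 0.31 on the AP and 1.12 on the ML array, but its other probe gave 0.22 and -0.78. The adhesion receptor gene ADGRG6 stood at 0.12 and 0.97, C11orf57 at 0.49 and 0.86, C3AR1L at 0.35 and 0.83 and the adhesion receptor gene ADGRD1 at 0.45 and 0.76. INTS7, a subunit of the Integrator complex, was at 0.26 and 0.75, the coactivator gene TRRAP at 0.41 and 0.74 and the methyl-CpG binding gene MBD2 at 0.03 and 0.73. TMEM45A, at -0.23 and 0.72, was the only one of the 10 with an AP ratio below 0, and SH3RF3 stood at 0.28 and 0.70. Of these 10 genes, 4 had a second passing probe, and for UTRN, C11orf57, TRRAP and SH3RF3 alike that probe was within the limit or on the other side on the ML array, at -0.78, -0.18, -0.26 and 0.04. Over the whole class, 18 ML-only genes had other passing probes. In 3 of them all probes fell in the class, and in 12 all lay on the same side of the ML axis. For the AP-only class these counts were 4 and 26 of 33.

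Graded on both axes were 20 genes with a symbol, 18 on the same channel side and 2 on opposite sides. For a gene on the same side, a dye effect common to both arrays and a gradient on both axes cannot be told apart. All are given, although ODC and ATRX lie beyond the naming rule and were added after their values were seen. Higher in Cy5 on both arrays were PAX2, NTN1, NKX6-1, CYP26C1, SPINK5 and NBEAL2. PAX2, which helps set up the isthmus, had ratios of 3.0 on the AP and 0.93 on the ML array at HH35 and of 1.95 at ML HH30. Its net intensity was 1024 in the posterior and 112 in the anterior pool, and 327 and 147 in the ML pools. The AP value exceeded the ML value by 2.07, or 4.19-fold, far more than the spread of control spots.

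NTN1, which encodes the guidance cue netrin-1, stood at 1.75 and 0.87, although its other probe gave -0.02 and 0.40. NKX6-1, a ventral patterning gene, was at 0.71 and 0.71, and CYP26C1, which breaks down retinoic acid, at 0.77 and 0.64. These 3 genes and PAX2 were higher still on the other ML array, at 1.30 for NTN1, 1.49 for NKX6-1 and 1.21 for CYP26C1 at HH30. On the other AP array NTN1 was at 0.10, NKX6-1 at -0.30 and CYP26C1 at -0.08. The protease inhibitor gene SPINK5 stood at 0.79 and 0.75, and NBEAL2 at 0.64 and 0.61, with 0.23 at ML HH30 for NBEAL2 and -0.27 for SPINK5.

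Higher in Cy3 on both arrays were EPHA3, NR2F2, C1QTNF3, BNIP3L, FAM188A, ODC, UBL3, SERINC1, TGFB2, AMPH, DYNLL2 and ATRX. EPHA3, a receptor for ephrin-A ligands, stood at -2.46 on the AP and -0.61 on the ML array at HH35, at -1.71 at AP HH37 and at 0.01 at ML HH30. Its net intensity was 10904 in the anterior and 1635 in the posterior pool. It was thus strongly anterior at both stages, and its ML ratio was past the limit at HH35 only. NR2F2, an orphan nuclear receptor, was at -0.93 and -0.91 at HH35, at -1.75 at AP HH37 and at 0.98 at ML HH30. On the ML axis NR2F2 was therefore high in opposite channels at the 2 stages.

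The remaining genes of that side had AP ratios between -0.92 and -0.59 and ML ratios between -0.92 and -0.60. The secreted factor gene C1QTNF3 stood at -0.92 and -0.92, the mitochondrial gene BNIP3L at -0.72 and -0.69, FAM188A at -0.72 and -0.69, and the ornithine decarboxylase gene ODC at -0.69 and -0.60. UBL3 was at -0.68 and -0.66, SERINC1 at -0.67 and -0.85, the growth factor gene TGFB2 at -0.63 and -0.86, AMPH, a gene of synaptic vesicle recycling, at -0.62 and -0.71 and the dynein light chain gene DYNLL2 at -0.61 and -0.64. ATRX, a chromatin remodeller gene, was at -0.59 and -0.69, but its other probes gave -0.85 and -0.64 on AP and -0.28 and -0.01 on ML. It held its class in 6 of 11 alternative settings.

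On opposite sides were BOC and C8orf22, and the other 2 features of that kind carried no symbol. BOC, a co-receptor for sonic hedgehog, stood at 0.67 on the AP and -0.64 on the ML array at HH35 and at -0.72 at ML HH30. C8orf22 was at 0.69 and -0.63, and at 0.62 at ML HH30. BOC kept the sign of both ratios in all 11 alternative settings.

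**Figure D2:**
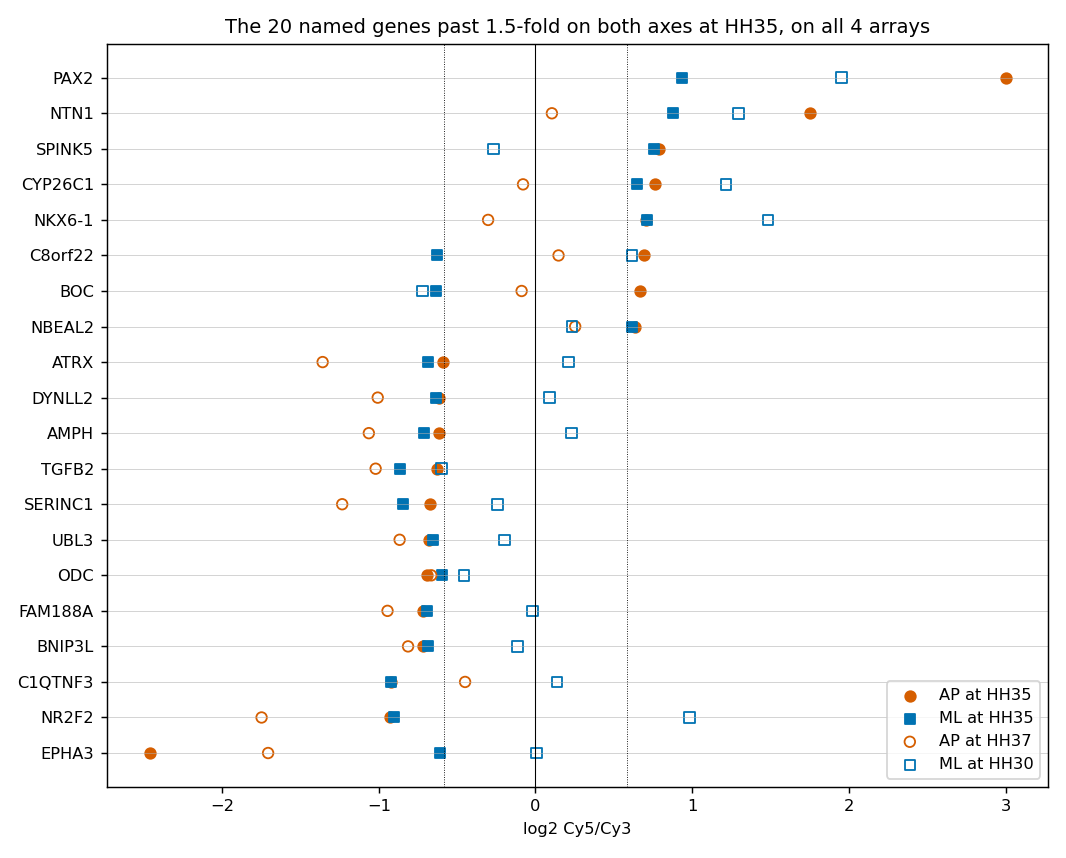
Log2 ratio of Cy5 over Cy3 (x axis) of the 20 genes with a symbol past 1.5-fold on both axes at HH35 (y axis), with filled symbols for the HH35 arrays and open symbols for AP at HH37 and ML at HH30; dotted lines mark 1.5-fold, and values with a channel below the signal-to-noise limit are left out. NR2F2 lies at -0.91 and 0.98 on the ML arrays, and PAX2, NTN1, NKX6-1 and CYP26C1 have their ML HH30 values above their ML HH35 values.

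Subtracting the ML from the AP ratio cancels any dye bias common to the pair of arrays, at the price of adding the ML contrast with its sign turned. Past 1.5-fold in this difference were 1864 features (10.7%), 846 above 0 (4.84%) and 1018 below 0 (5.83%). Among genes with a symbol 650 (11.1%) were past it, 366 (6.25%) above 0 and 284 (4.85%) below. The side with more features depended on the processing. Above and below 0 were 414 and 1727 with median centring, but 1246 and 1095 with plain subtraction, 554 and 411 at a signal-to-noise limit of 10, and 1770 and 1193 in the authors' value table. The difference passed the limit for 847 of the 1761 AP-only features (48.1%), 120 of the 428 ML-only features (28%), 14 of the 81 graded on both (17.3%) and 883 of the 15198 graded on neither (5.81%). More than 1 in 2 of the AP-only features thus had an AP ratio past 1.5-fold whose distance from the ML ratio was less than this.

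The highest differences among genes with a symbol were those of DIO3 at 2.12, GRP at 2.11, PAX2 at 2.07, EN1 at 1.66, HES6 at 1.63, CRYAB at 1.62, HYAL2 at 1.45 and CRYBB2 at 1.33. The difference of DIO3 was composed of 1.57 on AP and -0.55 on ML, whereas that of EN1 came from AP alone. CRYAB and CRYBB2, which encode crystallins, were at 1.12 and 0.86 on AP and -0.50 and -0.47 on ML. HYAL2, a hyaluronidase gene, was at 1.19 and -0.27. The lowest differences were those of EPHA3 at -1.85, TAC1 at -1.67, WBSCR17 at -1.45, ADGRL2 at -1.38, ELMOD1 at -1.30, CDH2 at -1.20, PCDH10 at -1.18 and CPE at -1.17. TAC1, the tachykinin precursor gene, stood at -1.10 and 0.57, but its other probe gave 0.04 and -0.09. ADGRL2, a latrophilin and teneurin receptor gene, was at -0.88 and 0.50, and CDH2, which encodes N-cadherin, at -0.91 and 0.29. All 16 of these genes kept the sign of the difference in the settings that could be computed.

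**Figure D3:**
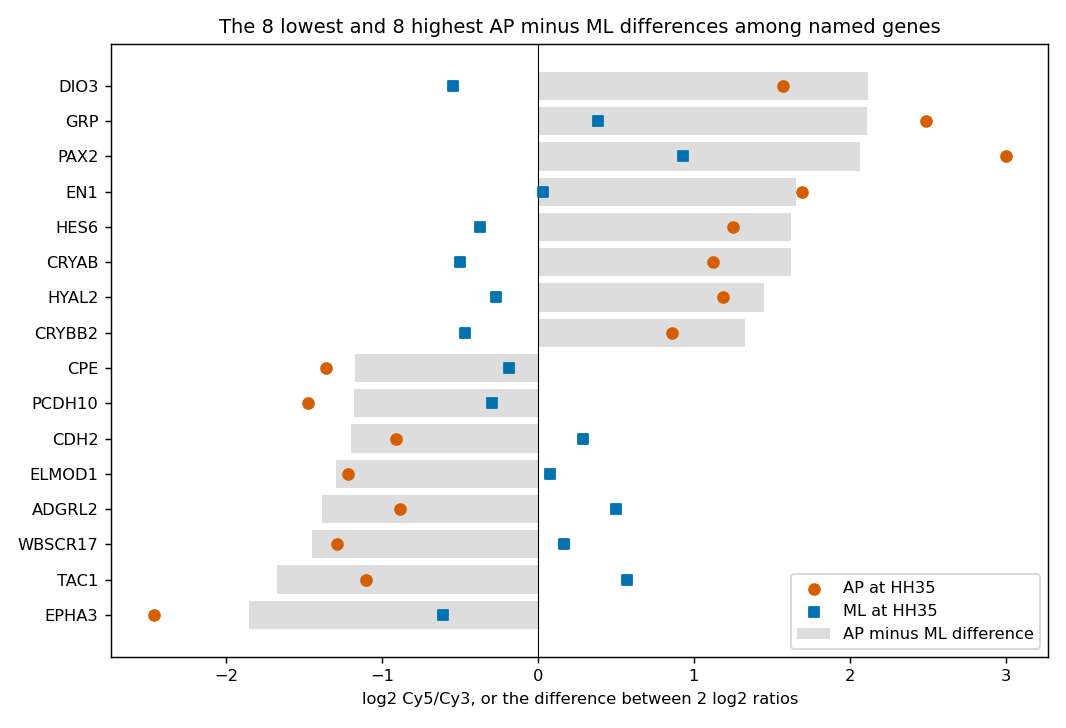
The 8 lowest and 8 highest AP minus ML differences among genes with a symbol at HH35 (grey bars, difference between log2 ratios), with the AP ratio (circles) and ML ratio (squares) of each gene (log2 Cy5 over Cy3). In EPHA3, GRP and PAX2 both ratios lie on the same side, while in DIO3, CRYAB, CRYBB2, TAC1 and ADGRL2 they lie on opposite sides of 0.

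The Eph receptors and ephrins, the map cues of the tectum, were split between classes. Of 9 EphA receptors listed, 6 had a probe with a symbol and 4 passed. EPHA3 was graded on both axes, EPHA4, at -0.75 on AP and -0.35 on ML, and EPHA6, at -0.74 and -0.27, on AP only, and EPHA5, at 0.29 and 0.27, on neither. The AP minus ML difference was -0.40 for EPHA4 and -0.47 for EPHA6, within 1.5-fold, and 0.02 for EPHA5. EPHA7 is not sorted here because 1 channel was below the signal-to-noise limit. Among ephrin-A ligands EFNA5 was graded on AP only, at 1.16 and 0.09, with an AP minus ML difference of 1.07. EFNA2 was at 0.42 and 0.58, graded on neither, and its ML ratio lay just outside the limit. Its difference was -0.16, so the posterior excess of EFNA2 was no larger than its Cy5 excess on the ML array. The EphB receptors EPHB1, EPHB2 and EPHB3 stood at -0.07, 0.10 and 0.09 on AP and at -0.40, -0.28 and 0.10 on ML, and 0 of them passed the limit on either axis. The ephrin-B gene EFNB1 was at 0.48 and -0.06, also within it.

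At HH35 adhesion molecules of the same families fell on different axes. Among teneurins and their partners 7 of 10 listed genes passed, all 7 leaned anterior, and 5 leaned to Cy3 on the ML array, with medians of -0.58 and -0.13 beside -0.04 and -0.13 over all genes with a symbol, so that their ML median was that of the background. TENM2, at -0.68 and 0.21, was graded on AP only, while TENM3 was graded on ML only. The latrophilin gene ADGRL2 and FLRT3, at -0.59 and -0.36, were also graded on AP only. The AP ratio of FLRT3 was just past the limit, and its AP minus ML difference was -0.23. That difference ranged from -0.38 to 0.12 over the alternative settings, and FLRT3 held its class in 8 of 10. Of 26 passing genes of the cadherin and protocadherin list, 8 were graded on AP only, 2 on ML only and 0 on both. Higher in the anterior pool were PCDH10, CDH2, FAT1 at -0.79, CDH7 at -0.75, CDH13 at -0.73 and CDH10 at -0.72. So was CTNNA2 at -0.74, a catenin gene that the list also holds. CELSR1, at 0.64, was higher in the posterior pool. On the ML array CDH20, at -0.75, and CDH6, at -0.61, were higher in the Cy3 pool. Both were also past the limit in the anterior pool at AP HH37, as were 22.3% of all genes with a symbol measured there. CDH13, graded on AP only at HH35, was past the limit at ML HH30. The shares past the limit among genes with a symbol at HH35 were 9.58% on AP and 2.42% on ML, as above.

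At HH35 the medians of the progenitor and cell cycle lists lay on the posterior side of the AP axis and on the Cy3 side of the ML axis. All genes with a symbol had medians of -0.04 on AP and -0.13 on ML, with 1852 of 5859 in Cy5 on ML. The cell cycle list, with 15 of 34 genes in Cy5 on ML, thus leaned to Cy3 less than all such genes. On the AP array at HH37 the medians of both lists were on the anterior side, at -0.41 and -0.21, where the median of all genes with a symbol was -0.22. List medians at HH37 and HH30 cover every member passing at HH35. They include members with a channel below the signal-to-noise limit there, such as CCNB3, PLK1 and PAX6 at HH37. The neural progenitor list, with 13 of 22 genes passing, had a median of 0.23 on AP, -0.22 on ML and 0.54 for the difference, the highest of 43 lists with at least 3 passing members. On AP 4 were past the limit, all posterior, against 2.3% of all genes with a symbol, and on ML 1, CDH6, in Cy3, against 1.74%. SOX3, a progenitor transcription factor gene, stood at 0.81 and -0.09, PAX6 at 0.82 and 0.11, the RNA-binding protein gene MSI1 at 0.69 and -0.22 and the intermediate filament gene NES at 0.63 and 0.12. At ML HH30 PAX6 was at 1.40, past the limit in Cy5, while SOX3, MSI1 and NES were within it. Of 34 passing cell cycle genes 24 leaned posterior, as did 2686 of all 5859 genes with a symbol, with a median of 0.22 on AP and -0.06 on ML. Past the limit in the posterior pool, as were 2.3% of all such genes, were 6, CCNB3, PLK1 at 0.93, RRM2 at 0.74, MCM3 at 0.69, NUSAP1 at 0.66 and MCM2 at 0.59, and TYMS, at -0.63, was past it in the anterior pool. On ML only TTK, at -0.67, was. The signs of the progenitor medians held in all 11 alternative settings, and the ML median of the cell cycle list ranged from -0.18 to 0.01.

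Genes of maturing neurons were on the anterior side of the AP axis and on the Cy3 side of the ML axis. Of 29 passing members of 48 listed, 23 leaned anterior and 28 to Cy3 on ML, with medians of -0.36 and -0.30 and a difference of 0.05. Past the limit on AP were 8, all anterior, where 7.27% of all genes with a symbol were, among them MAP1B, a microtubule protein gene of growing axons, at -1.15, the neurofilament gene NEFM at -1.09, the synaptic vesicle gene SYT1 at -0.93 and ELAVL4, a neuronal RNA-binding protein gene, at -0.92. On ML these stood at -0.33, -0.08, -0.45 and -0.46. Past the limit on ML were SNAP25, a gene of vesicle fusion, at -0.75, and STMN3 at -0.62, and neither was past it on AP. STMN3 leaned posterior there, at 0.31, as did GAP43, a growth cone gene, at 0.34. On AP HH37 the list's median was -1.0 and on ML HH30 0.25, on the other channel side. Ribosomal protein genes likewise leaned to Cy3 on the ML array in 28 of 31 cases, with a median of -0.25, and their AP median was -0.02. Over all genes with a symbol 4007 of 5859 had an ML ratio below 0, and their ML median was -0.13. The part of this common lean in the ML medians of single lists was not tested.

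Of 15 passing neuropeptide genes, 8 were past the limit on AP, 7 of them in the posterior pool, and 0 on ML. Of all genes with a symbol 9.58% were past it on AP, 2.3% in the posterior pool, and 2.42% on ML, so a count of 0 among 15 on ML is near the background. The posterior ones were GRP, NMU, SST7, PNOC at 1.09, ADCYAP1 at 0.88, NPY at 0.62 and POMC at 0.59, and the anterior one was TAC1. Of 9 passing neuropeptide receptor genes, 6 leaned posterior and 3 anterior. Past the limit in the posterior pool were 2, SSTR5, at 1.09 and 0.04, and SSTR2, at 0.73 and -0.08. NPY5R leaned anterior and was graded on ML only. Other regional genes on AP only at HH35 were SIX3 at 1.2 and LHX1 at 0.73 in the posterior pool, and RORA at -1.09 and LHX9 at -0.82 in the anterior pool. At ML HH30 SIX3 was at 1.42, past the limit in Cy5, while LHX1, RORA and LHX9 were within it.

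Ventral midbrain and sonic hedgehog genes stood on the Cy5 side of the ML array without exception among the 8 that passed, of 19 with a symbol on the array. Of all genes with a symbol 1852 of 5859 stood there. On AP 5 of the 8 leaned posterior and 3 anterior. The medians of the 8 were 0.36 on AP, 0.33 on ML and 0.98 at ML HH30. NKX6-1 and NTN1 were past the limit on both axes, as were 0.341% of all genes with a symbol. PITX3, at 0.69 and 0.25, was past it on AP only, as were 9.23%. SHH, the ligand, was at 0.29 and 0.44, and at 0.83 at ML HH30. Markers of other cell types were mostly within the limit, as were 88.3% of all genes with a symbol on both axes. Of the passing markers of endothelium (10), microglia and leukocytes (4), choroid plexus (3) and muscle and cartilage (13), 0 were past it on either axis. Of 6 meningeal markers PTGDS, at 0.29 and 0.61, was past it on ML, and all 6 leaned to Cy5 there. Past it on AP were 1 of 4 pericyte and smooth muscle markers, KCNJ8 at -0.75, 2 of 6 oligodendrocyte markers, MBP at 1.18 and SOX8 at 0.67, and 1 of 9 astrocyte and radial glia markers, AQP4. The part of these cells in the results was not tested. HINTW, the single gene of the female W chromosome with a passing probe, stood at 0.10 and -0.57, while its other probe gave 0.07 and -0.04. Dorsal midline genes did not share a side on ML. WNT3A and DRAXIN were in Cy3, and MSX2 and GDF7 in Cy5 at 0.37 and 0.30. FGF receptor genes were ML only, FGFR3 at -0.66 and FGFR2 at -0.61, with AP ratios of -0.56 and -0.41 that were just short of the limit or below it. Their AP minus ML differences, 0.10 and 0.19, were smaller than the median SD of control spots for the difference (0.205). FGFR3 held its class in 6 of 10 alternative settings. Of 10 passing retinoic acid genes 3 were past the limit on AP, where 9.58% of all genes with a symbol were. RARB was anterior, and CYP26C1 and STRA6, the latter at 0.62 and -0.30, were posterior. CYP26C1 was also past it on ML, where 2.42% of all such genes were. ALDH1A2 is not sorted because 1 Cy5 channel was below the signal-to-noise limit, as was the case for FGF8.

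**Figure D4:**
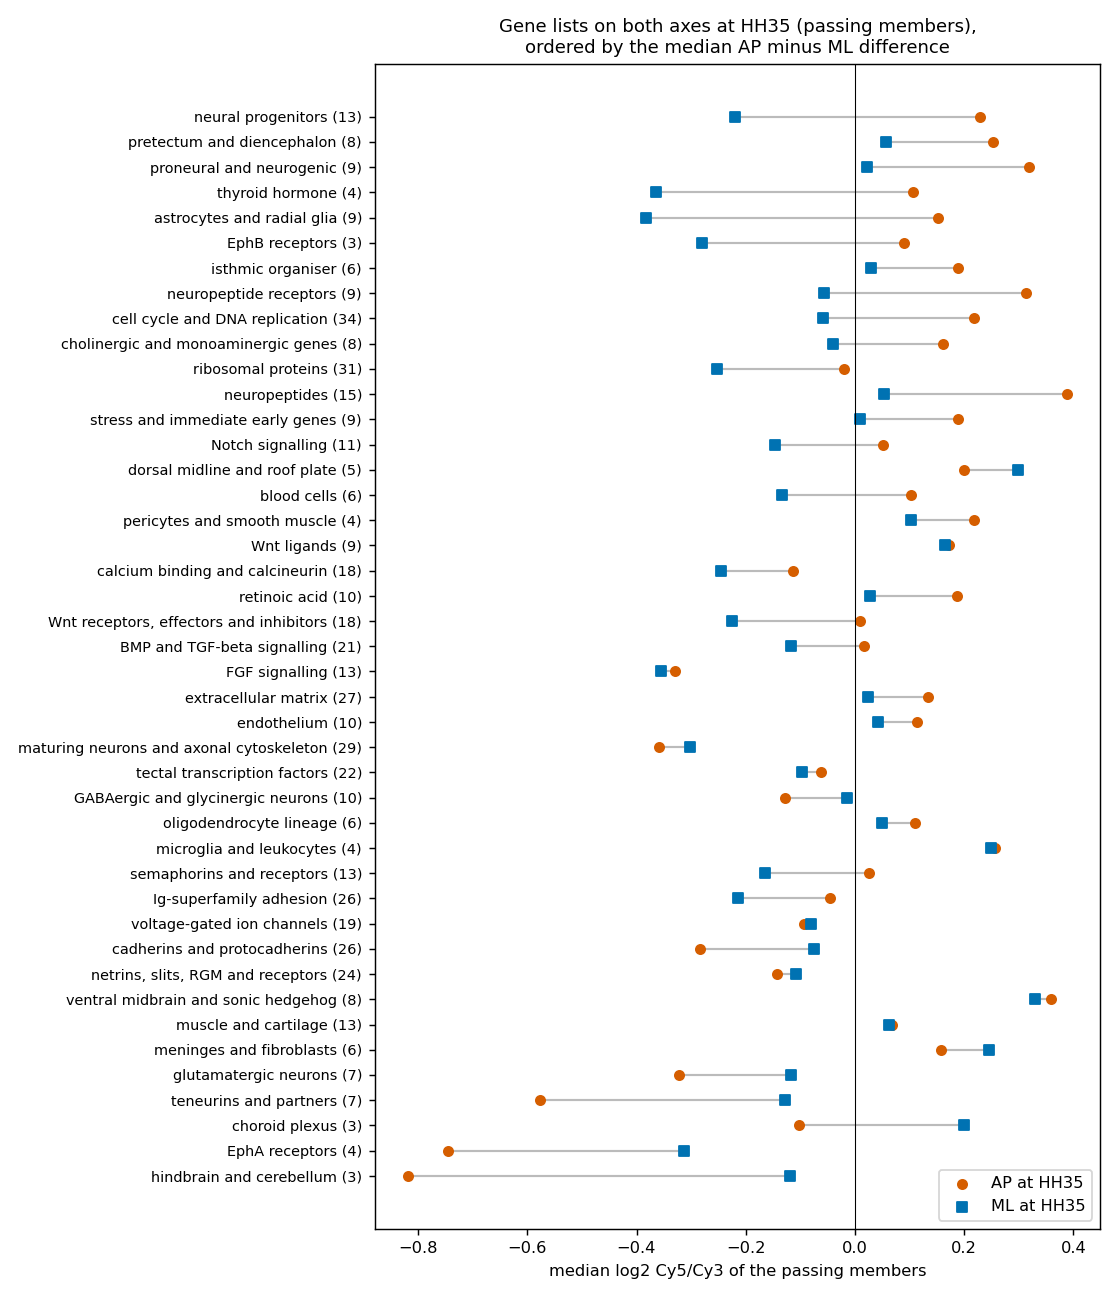
Median log2 ratio of Cy5 over Cy3 on the AP array (circles) and the ML array (squares) at HH35 for 43 gene lists with at least 3 passing members (number in brackets), ordered by the median AP minus ML difference. Neural progenitors lie at 0.23 and -0.22, EphA receptors at -0.75 and -0.31, and maturing neurons at -0.36 and -0.30.

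The arrays of the other stages were not used in the sorting and show how far each class recurs. On the AP array at HH37, AP-only features that were anterior at HH35 had a median ratio of -0.57, and 697 of the 772 measured there (90.3%) were anterior again. Over all features anterior at HH35, the median was -0.35 and the share 76.4%. The AP-only features of the posterior side had a median of 0.20 with 350 of 434 (80.6%) posterior, against 0.11 and 64.4% over all features posterior at HH35. Past the limit on the same side again were 378 anterior (49.0%) but 16 posterior features (3.69%), where 16.1% and 1.55% of all features measured at HH37 were past it on those sides. Of all features anterior at HH35 30.8% were past it again, and of all posterior at HH35 2.27%. HH37 was the dimmest array, and stage and array cannot be told apart. On the ML array at HH30 the AP-only features had medians of -0.04 for the anterior and 0.18 for the posterior ones. The median of all features there was 0.01, and of all features in Cy5 on the ML array at HH35 65.1% were in Cy5 again. That share groups features by their ML channel, and the matching share grouped by AP side was not computed. Of the AP-only posterior features 340 of 479 (71.0%) were higher in Cy5 there and 41 (8.56%) were past the limit in Cy5, where 1.99% of all features were. Of the AP-only anterior features 30 of 1175 (2.55%) were past it in Cy3, against 1.31% of all.

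The ML-only class was followed on the same 2 arrays. On the ML array at HH30, the Cy5 side had a median of 0.32 and the Cy3 side of -0.13, and 12 of 199 and 13 of 159 were past the limit on the same side, where 1.99% of all features in Cy5 and 1.31% in Cy3 were past it. Of all features on the same side of the ML array at HH35, 2.46% in Cy5 and 1.89% in Cy3 were past it again. On the AP array at HH37, which is neither of the same axis nor of the same stage, the medians were larger, at 0.40 and -0.81. There 258 of 259 features of the Cy5 side and 130 of 142 of the Cy3 side lay in the same channel. Over all features measured on that array the median was -0.02. Of all features in Cy5 and in Cy3 on the AP array at HH35, 64.4% and 76.4% kept their channel on it. These shares group features by their AP channel, whereas the ML-only features are grouped by their ML channel. The matching share of all features grouped by ML channel was not computed. Past the limit at AP HH37 were 92 of the 142 (64.8%), against 16.1% of all features in Cy3. Of the named ML-only genes GPM6A, ITFG1, ITM2A, LDHB and HBBA were such cases, at -0.87, -1.21, -0.95, -0.98 and -1.68 on AP HH37. This was not particular to the ML-only class. Of the features in Cy3 on both axes at HH35, 20 of 28 (71.4%) were past the limit in Cy3 at AP HH37, with a median of -0.93. Which property these arrays share was not tested.

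**Figure D5:**
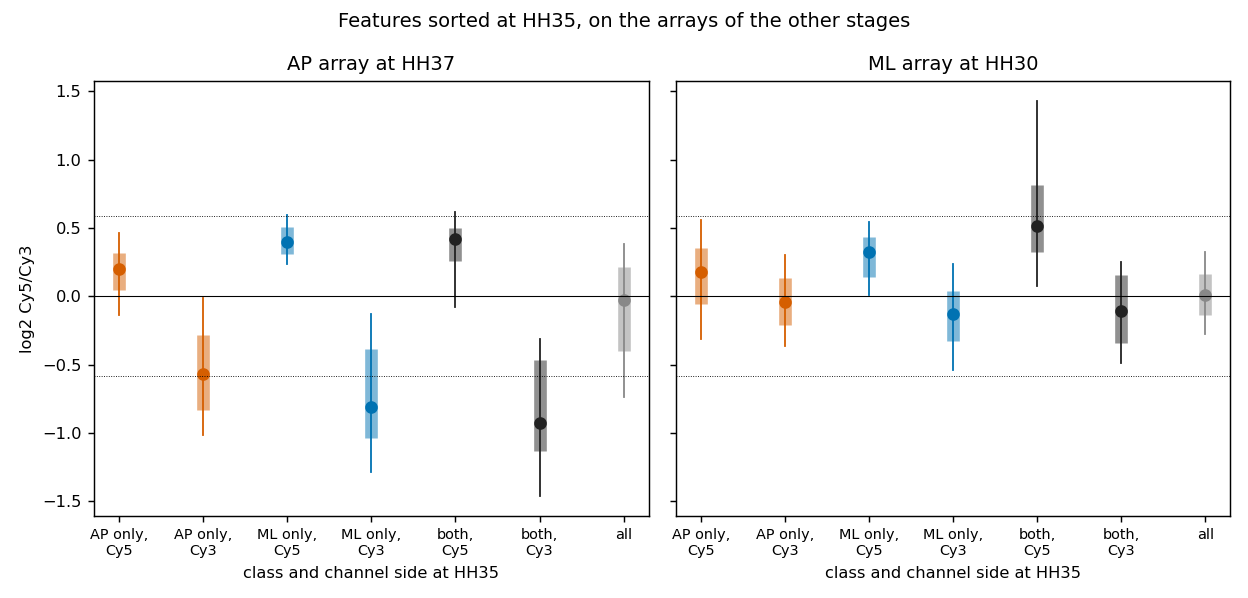
Log2 ratio of Cy5 over Cy3 (y axis) on the AP array at HH37 (left) and the ML array at HH30 (right) for features grouped by class and channel side at HH35 and measured on that array; points are medians, thick bars the middle 50% and thin lines the middle 80%. ML-only features of the Cy3 side lie at -0.81 on AP HH37 and at -0.13 on ML HH30.

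Over all features, few were graded at both stages of one axis, although 378 of 772 AP-only anterior features (49.0%) were past the limit at HH37 too. Of 12219 features measured on all 4 arrays, 412 (3.37%) were past the limit on the same side of both AP arrays and 40 (0.327%) of both ML arrays. AP-only features past the limit at HH37 too and within it at ML HH30 numbered 368 of 1167, 361 of them anterior and 7 posterior. Among genes with a symbol there were 123 of 375, and MSI1, at 0.69 and 0.63, was the only one on the posterior side. Of all genes with a symbol measured at HH37, 22.3% were past the limit on the anterior side and 0.407% on the posterior side. The anterior ones among the 123 included PPP3CA, ELMOD1, PBX3, MAP1B, NEFM, SYT1, EPHA4, RORA, LHX9, SEMA3A, CDH2 and DKK3. SEMA3A, a secreted axon repellent gene, was at -0.94 and -0.70 on AP and -0.01 and 0.49 on ML at HH35 and HH30. DKK3 stood at -1.02 and -0.59 on AP and at -0.24 and 0.08 on ML. Past the limit on the other side of the AP axis at HH37 were 5 posterior genes, NES, SLIT1, SOX8, PNOC and SARS1, the last pair named after their values were seen. Of the AP-only posterior features, 9 of the 434 measured at HH37 were past it on the anterior side. Of all features posterior at HH35, 491 of 7934 were, so such a turn was not more frequent in this class. NES went from 0.63 to -0.62, SLIT1, a repellent gene, from 0.62 to -0.81 and PNOC from 1.09 to -0.84.

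For the ML axis, 5 of 107 ML-only genes with a symbol were past the limit on the same side at HH30, where 2.13% of all such genes were past it in Cy5 and 0.828% in Cy3. Among them were TENM3 and WNT3A, given above, FGFR2 at -0.63, and COL23A1, which was named after its values were seen. COL23A1, a collagen gene, stood at -0.71 at HH35 and -0.73 at HH30. TENM3, WNT3A and COL23A1 were within the limit on both AP arrays, and FGFR2 was at -0.73 at AP HH37. Of the 18 genes graded on the same side of both axes, 16 were measured on all arrays. Past the limit at AP HH37 alone were 10, at ML HH30 alone CYP26C1, NKX6-1 and NTN1, on both TGFB2, at -1.02 and -0.60, and on neither C1QTNF3 and NBEAL2. The 10 were all in Cy3, where 22.3% of all genes with a symbol were past the limit at AP HH37. TGFB2, a growth factor gene, was thus the single gene past 1.5-fold in the same channel of all 4 arrays.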

How the data were processed

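Per the file headers, each deposited scanner file holds linear, unnormalised spot intensity. The deposited files also hold a score of signal over noise per channel and, as percent, how many pixels were saturated. The columns are those of GenePix, while Agilent Feature Extraction is named in the submitters' processing notes. The authors' deposited table holds a ratio per probe, and the deposited value table is its log2. Their normalisation is not given in the sources used here.

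From the intensities, background was corrected by normexp (offset 50, mean foreground, median background) and log2 ratios were normalised by loess with a span of 0.3 and no weight on control spots (R 4.3.3, limma 3.58.1). Net intensities in the text are foreground minus background. Genes were represented by their brightest passing probe, named through the files' names and accessions and a GRCg7b table, used for names only. EN1, EFNA6, DLX6, NKX6-1 and GAP43 were named from probe descriptions, and 44 probes with disagreeing names stayed unnamed. No test was run, since each group is 1 array. Precision rests on 1 array per group and on repeated control spots. Simulated data of 26633 probes with 100 ratios changed by 1 and 100 by 2 gave 89% and 99% of them back, with 1 false call. The simulation held a smooth dye curve and spot noise only, with no dye effect of single genes and no variation between pools. It therefore checks the normalisation and gives no error rate for the features called here.

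The members, the 46 gene lists and the rule for naming genes were chosen with earlier results of these data known, so none is independent support. The rule took the 10 furthest genes to each side for AP only and ML only, up to 15 per side relation for both axes, the 8 highest and 8 lowest AP minus ML differences, up to 4 members of each list and a fixed set of patterning genes, of which not all are printed. Alternatives covered background, normalisation, the value table, filters, probe choice and thresholds. Members of a list printed because they were past the limit, beyond those 4, were added after their values were seen. Tables and plots were made with pandas 2.3.3, numpy 2.4.6 and matplotlib 3.10.9 in Python 3.11.15. A few genes of the lists are not reported here.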

Additional observations from a re-analysis of the deposited data

How the results depend on the processing

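No paired analysis was possible because each group is 1 array and no replicate can be left out. The values below stand in the order AP past the limit, ML past it, AP only, ML only, both, and the AP minus ML difference, from 1842, 509, 1761, 428, 81 and 1864. In the authors' value table they were 3146, 1333, 2782, 969, 364 and 2963, and at 2-fold 168, 16, 167, 15, 1 and 196, the feature on both carrying no symbol. Where only counts that moved by over 1.5 times are given, median centring gave 3059 for AP, 2934 for AP only and 125 for both. Plain subtraction gave 845 for ML, 659 for ML only and 186 for both, and the median of the pixels 148 for both. A signal-to-noise limit of 10 gave 1043 for AP, 981 for AP only, 281 for ML only and 965 for the difference, and no filter gave 3141 for the difference. The furthest 5% on each array, added after seeing the data, gave 874 per axis, 821 on either axis only and 53 on both. The AP-only features on the same side at HH37, 1047 in number, became 1614 with median centring, 1827 in the value table and 84 at 2-fold. Other counts stayed within 1.5 times. Of 249 values past the limit among the named genes, 1 changed sign under an alternative, the AP minus ML difference of UTRN, which was 0.095 as a mean over its probes. Of 138 named genes past the limit, 94 kept their class with median centring and 119 in the value table. All weigh the same 2 arrays and are no replicates. Spots near background limit the dim genes, since 1437 genes failed only for Cy5 channels and 1 only for Cy3.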
